A study of Mus musculus with 2 samples.

Results

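The mitochondrial ribosomal protein genes make up the protein part of the ribosome that works inside mitochondria. They were taken as all gene probes whose name in the array files begins with Mrpl (proteins numbered with the large subunit) or Mrps (proteins numbered with the small subunit) followed by a digit. This gave 124 probes for 75 genes, out of 41174 gene probes for 27975 genes on the array design. The name rule uses no measured values, but the family was chosen with earlier results of these data known. Of the 75 genes, 42 had 1 probe and 33 had several, and they lay on 17 chromosomes.

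Gene expression was compared between regulatory T cells (Treg cells, the CD4+ T cells that restrain immune responses through the transcription factor Foxp3) with and without Bcl11b, a DNA-binding factor that T cells need for their development and identity. There were 2 two-colour Agilent arrays, 1 for each way of deleting the gene. On the array called Cd4Cre here, the deficient cells were sorted Foxp3-Gfp+ Treg cells of Bcl11bF/F/Cd4Cre/Foxp3-GFP+ mice, in which the recombinase is driven by Cd4 and acts in developing T cells at large. On the array called Foxp3Cre, they were sorted Treg cells of Bcl11bF/F/Foxp3Cre mice, in which the recombinase is restricted to cells that express Foxp3. Each array set them against a wild-type pool made from 3 mice, sorted as Foxp3-Gfp+ Treg cells for the Cd4Cre array and as Treg cells for the Foxp3Cre array. All were of the C57BL\6 background. The labels give no number of mice for the deficient pools, and no age or treatment. Wild type carried the Cy3 dye and deficient the Cy5 dye on both arrays, so a dye effect and a genotype effect cannot be told apart, and with 1 array per Cre system a value on 1 array has no replicate.

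Mitochondria translate a small set of their own messages, all of them for core subunits of the respiratory chain and the ATP synthase, and every ribosomal protein for this task is encoded in the nucleus, made in the cytosol and imported. Some of these proteins descend from bacterial ribosomal proteins and others were added in the mitochondrial lineage. T cells are known to expand their mitochondria when they are activated and divide. Mrps30 and Mrps18a carry small-subunit numbers but sit in the large subunit, and Mrps36 is now assigned to the 2-oxoglutarate dehydrogenase complex. The 75 genes were therefore treated as 48 of the large subunit, 26 of the small subunit, and Mrps36.

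Each ratio sets the deficient pool over the wild-type pool on the log2 scale after loess normalization within the array, so that 1 is 2-fold higher in the deficient pool and -1 is 2-fold lower. Pool values are log2 signals after the mean brightness of both arrays was set on a common scale, which leaves the ratios unchanged. The error given with a ratio is the scanner software's own error for a probe, which covers the spot and not the animals. Where a gene had several probes its value is that of the brightest, and a gene counted as detected on an array if either channel of this probe was well above background there.

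Both arrays had 43379 gene spots, none of them saturated. Between 20689 and 24439 spots were well above background in each channel, and spots of 1 probe printed repeatedly had an SD of 0.06 (Cd4Cre) and 0.07 (Foxp3Cre) in log2 ratio over 245 probes. Of all genes, 15872 were detected with Cd4Cre and 15189 with Foxp3Cre. Bcl11b itself, read by its brightest probe, had a ratio of -2.46 (error 0.30) with Cd4Cre and -1.82 (error 0.26) with Foxp3Cre, and another, dimmer probe read -1.19 and -0.32, all lower in the deficient pool as labelled. Foxp3 read 12.50 in the wild-type pool and 8.93 in the deficient pool of the Cd4Cre array, a ratio of -3.57. That deficient pool is labelled as sorted for the Foxp3 reporter. On the Foxp3Cre array Foxp3 read 10.02 and 9.82, a ratio of -0.20, both below the wild-type pool of the Cd4Cre array. The pools are therefore called by their labels only. In the deficient pool of the Cd4Cre array the summed signal for 12 myeloid and granulocyte markers was 19.11 against 15.92 in wild type. That for 7 NK cell markers was 16.81 against 13.60, and that for 9 Treg markers 16.18 against 17.99. On the Foxp3Cre array the deficient and wild-type sums were 18.19 and 17.39 (myeloid and granulocyte), 14.82 and 14.54 (NK cell), and 16.48 and 16.47 (Treg). In all such pooled RNA, fewer cells of a type and less RNA per cell cannot be told apart.

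On the Cd4Cre array most mitochondrial ribosomal protein genes had the higher signal in the pool labelled deficient. All 75 were well above background in both channels. Their median ratio was 0.67, from -0.43 to 1.40, beside a median of -0.05 over all detected genes. Of the 75, 68 lay above 0 (90.7%, against 47.2% of all detected genes), and 15 were at least 2-fold higher (20%, against 11.4% of all detected genes). None was at least 2-fold lower, beside 10.6% of all genes. The ratio exceeded 2 times the software's error upwards for 62 genes (26.1% of all detected genes) and downwards for 1, Mrps5 (25.5% of all detected genes). The middle of their distribution was also narrow, with an interquartile range of 0.45 against 1.03 over all detected genes.

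The highest ratio was that of Mrpl20, a large-subunit protein with a bacterial counterpart, whose signal was 14.84 in wild type and 16.24 in the deficient pool, a ratio of 1.40 (error 0.24) or 2.64-fold. Mrpl51, a large-subunit protein that bacteria lack, read 14.51 and 15.87, a ratio of 1.36. Mrps18c, a small-subunit protein, read 12.47 and 13.75, a ratio of 1.29. These genes do not share a subunit or an origin. The remaining large-subunit genes past 2-fold were Mrpl34 (1.24), Mrpl55 (1.23), Mrpl33 (1.11), Mrpl44 (1.09), Mrpl47 (1.07), Mrpl18 (1.07), Mrpl15 (1.07) and Mrpl54 (1.05). Those of the small subunit were Mrps25 (1.18), Mrps14 (1.06) and Mrps21 (1.05), and the dehydrogenase component Mrps36 read 1.19. The 15 thus comprised 10 large-subunit genes, 4 small-subunit genes and Mrps36. The lowest ratio inside the 2-fold limit was 1.05 (Mrpl54) and the closest outside it was that of Mrps28 at 1.998-fold, so the count depends on where the limit is set.

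At the other end, 7 genes read below 0. Mrps5, a small-subunit protein with a bacterial counterpart, had a signal of 12.74 in wild type and 12.31 in the deficient pool, a ratio of -0.43. Mrpl38, of the large subunit and without a bacterial counterpart, read 12.54 and 12.21, a ratio of -0.34. Mrpl10, which anchors the flexible stalk of the large subunit, read 13.86 and 13.58, a ratio of -0.28. The remaining 4, Mrps35 (-0.10), Mrps27 (-0.05), Mrpl24 (-0.03) and Mrpl9 (-0.01), lay within the error of 0. Mrpl12, which binds to Mrpl10 in that stalk, read 0.82, so neighbouring proteins of the same structure did not share a ratio. With median centring in place of loess, Mrpl10, Mrps35, Mrpl24 and Mrpl9 moved above 0 (0.25, 0.10, 0.60 and 0.13), whereas Mrps5, Mrpl38 and Mrps27 stayed below it (-0.16, -0.09 and -0.15).

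**Figure D1:**
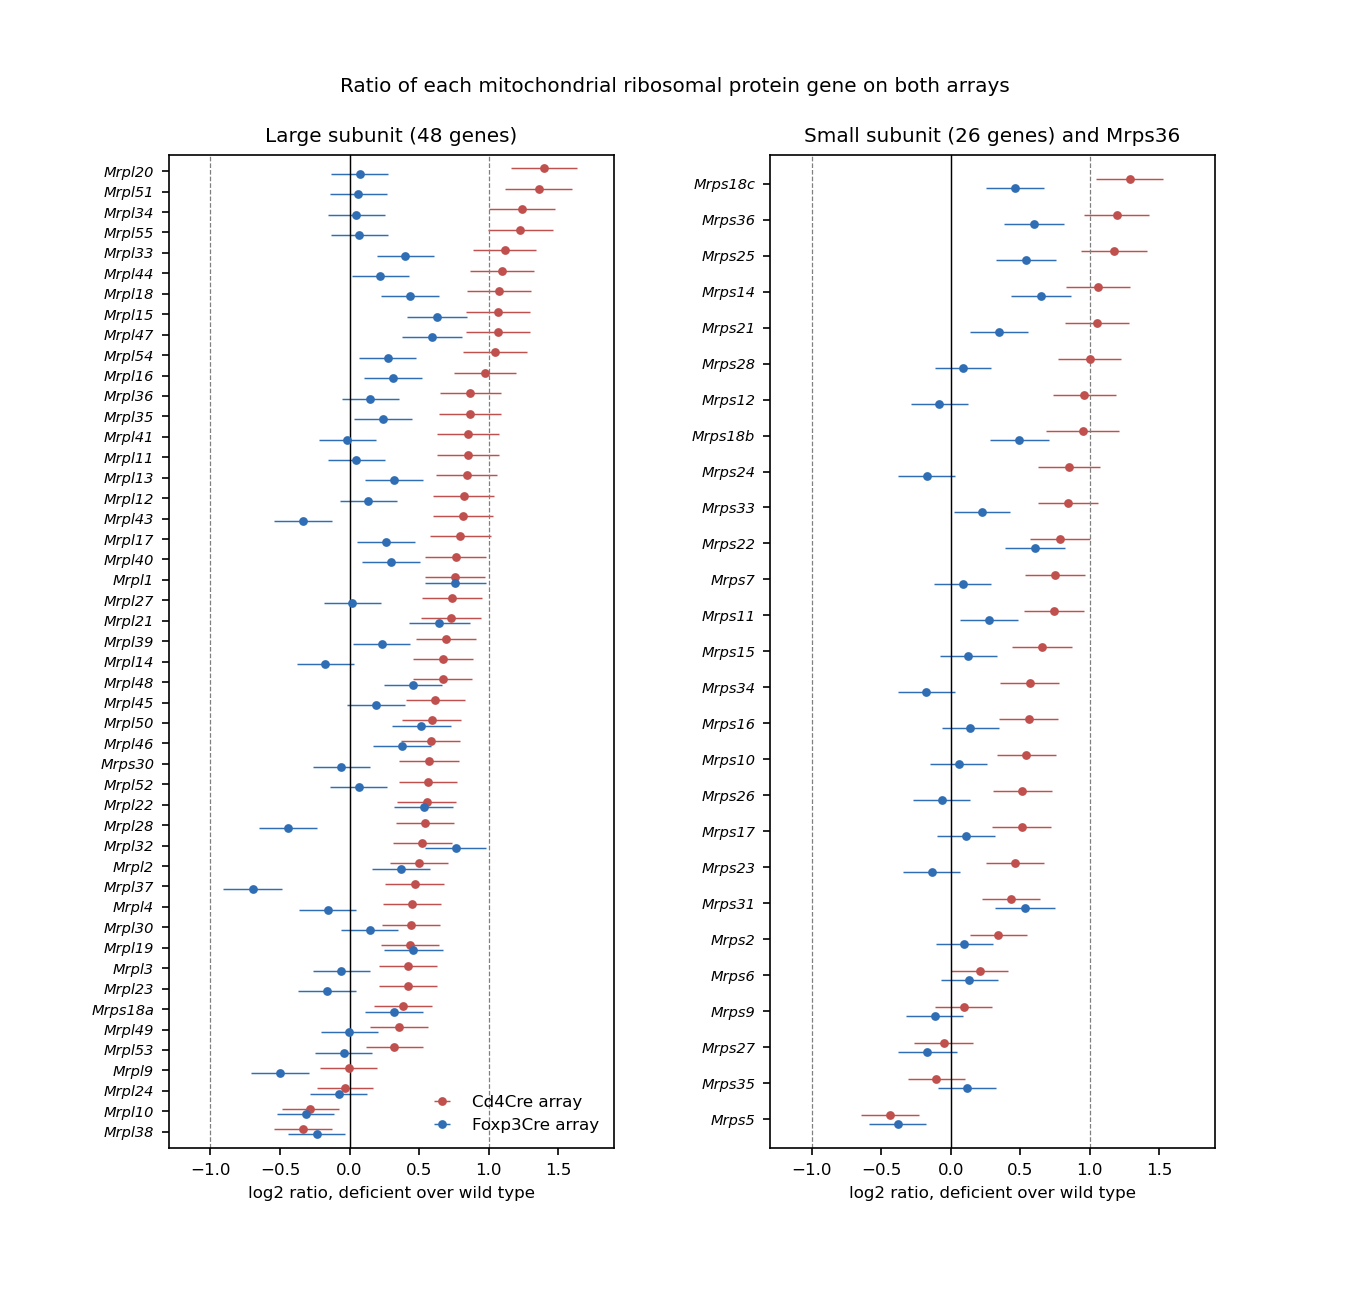
Log2 ratio of deficient over wild type (horizontal axis) for each of the 75 genes on the Cd4Cre array (red) and the Foxp3Cre array (blue), sorted by the Cd4Cre ratio within the large subunit (left) and the small subunit with Mrps36 (right). Bars are the scanner software's error of 1 array and dashed lines mark 2-fold. Red points span -0.43 to 1.40 and 15 lie past the upper dashed line, and blue points span -0.70 to 0.76 with none past either line.

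On the Foxp3Cre array the same genes lay close to 0. Their median ratio was 0.13, from -0.70 to 0.76, beside -0.08 over all detected genes, and all 75 were again well above background in both channels. Of the 75, 52 lay above 0 (69.3%, against 45.4% of all detected genes). None was at least 2-fold higher (2.94% of all genes were) and none at least 2-fold lower (11.5% of all genes were). The ratio was within 0.5 of 0 for 61 genes (52.3% of all detected genes, and 48.9% of those of the Cd4Cre array, where 22 of the 75 were). It exceeded 2 times the software's error upwards for 17 genes, at 22.7% close to the 19.5% of all detected genes, and downwards for 3, beside 28.8% of all genes.

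The highest ratios on the Foxp3Cre array belonged to Mrpl32 and Mrpl1. Mrpl32, whose precursor must be cut by a protease of the inner membrane before it joins the ribosome, read 12.68 in wild type and 13.45 in the deficient pool, a ratio of 0.76 (0.52 on the Cd4Cre array). Mrpl1, the protein of the large subunit's stalk on the side where tRNA leaves, read 12.21 and 12.97, also 0.76, the same as its ratio on the Cd4Cre array. Mrpl21 (0.65), Mrps14 (0.65), Mrpl15 (0.63) and Mrps22 (0.61) followed. The lowest ratio was that of Mrpl37, a large-subunit protein specific to mitochondria, with 11.70 in wild type and 11.00 in the deficient pool, a ratio of -0.70. Below 0 it was followed by Mrpl9 (-0.50), Mrpl28 (-0.44), Mrps5 (-0.38), Mrpl43 (-0.34) and Mrpl10 (-0.32). Mrps5 and Mrpl10 were thus among the 6 lowest genes on both arrays. With median centring, Mrpl37 and Mrpl9 stayed below 0 on this array (-0.47 and -0.25), and Mrpl28, Mrps5, Mrpl43 and Mrpl10 moved above it (0.58, 0.05, 0.73 and 0.18).

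Set side by side, 68 of the 75 genes had a higher ratio on the Cd4Cre than on the Foxp3Cre array (58.0% of all genes detected on both did), with a median difference of 0.50. On both arrays 51 genes lay above 0 (30.2% of all genes did) and 6 lay below 0 (37.9% of all genes did). A further 17 were above 0 on the Cd4Cre array only, and Mrps35 was above 0 on the Foxp3Cre array only (-0.10 and 0.12). All 15 genes past 2-fold with Cd4Cre were above 0 with Foxp3Cre, from 0.05 to 0.65 with a median of 0.40. Of all 1721 genes past 2-fold upwards with Cd4Cre and detected on both arrays, 74.9% were above 0 with Foxp3Cre, with a median of 0.39, and the arrays share the dye orientation. Across the 75 genes the ratios of the arrays correlated with Pearson r = 0.468 and Spearman rho = 0.431, close to the 0.476 and 0.496 over all genes detected on both. This describes genes that share dyes and array design, and genes are not replicates. The arrays differ in Cre system, mice, slide, scan and software version together, so these cannot be told apart, and the difference between the arrays was not tested.

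The genes with the greatest difference between the arrays included those that led on the Cd4Cre array. Mrpl20 read 15.63 in wild type and 15.70 in the deficient pool of the Foxp3Cre array, a ratio of 0.07 against 1.40. Mrpl51 read 15.11 and 15.17 there, a ratio of 0.06 against 1.36. Mrpl34 had 0.05 against 1.24 and Mrpl55 had 0.07 against 1.23. For these 4 genes the wild-type signal was the higher on the Foxp3Cre array by comparison with the wild-type signal on the Cd4Cre array, as the values of Mrpl20 (15.63 and 14.84) show. The last 2 of the 6 were Mrpl37 (0.47 and -0.70) and Mrpl43 (0.81 and -0.34), which lay on opposite sides of 0. In contrast Mrpl1 (0.76 and 0.76), Mrpl22 (0.55 and 0.53) and Mrpl21 (0.73 and 0.65) read nearly the same on both arrays.

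**Figure D2:**
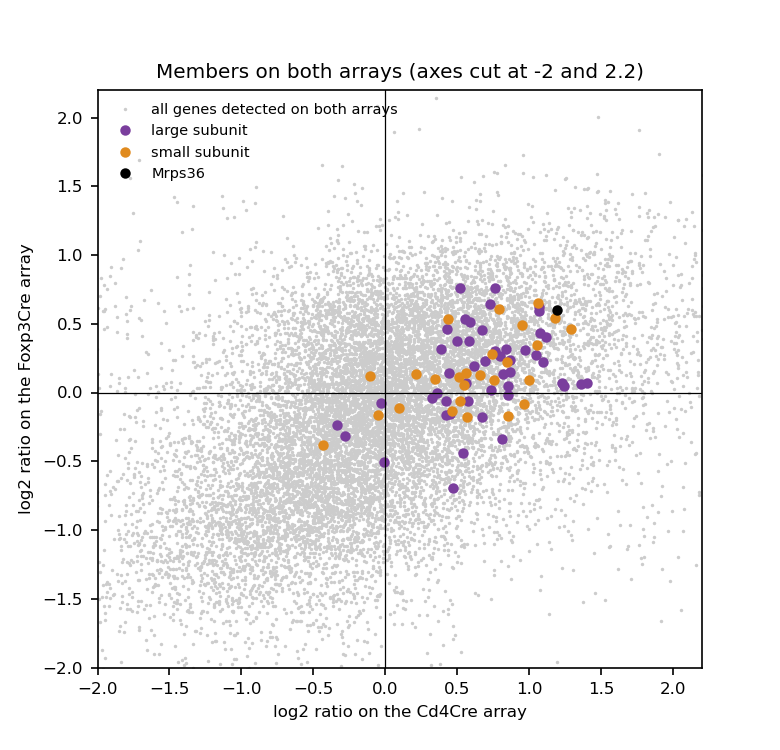
Log2 ratio of deficient over wild type on the Cd4Cre array (horizontal) against that for Foxp3Cre (vertical) for the large-subunit genes (purple), the small-subunit genes (orange), Mrps36 (black) and all genes detected on both arrays (grey, cut at the axis limits). The upper right quadrant holds 51 of the 75 genes, the lower left 6, the lower right 17 and the upper left 1.

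The levels in the 4 pools were also set side by side across the arrays. With both arrays on a common quantile scale, the median signal of the 75 genes was 13.01 in the wild-type pool and 13.61 in the deficient pool of the Cd4Cre array, and 13.50 and 13.94 in those of the Foxp3Cre array. From the Cd4Cre to the Foxp3Cre array, the wild-type signal was higher for 63 of 75 genes, with a median difference of 0.51 (54.6% of all genes, median difference 0.08). The deficient signal was higher for 32 of 75 genes, with a median difference of -0.04 (44.7% of all genes, median difference -0.12). On this scale the wild-type pools stood further apart for these genes than the deficient pools did. For each gene the wild-type difference minus the deficient difference equals the difference between its ratios, so this restates that result. When each array was instead scaled to the same median signal, the differences were 0.997 for wild type (all genes 0.40) and 0.48 for deficient (all genes 0.21). The wild-type signal was then higher on the Foxp3Cre array for 73 of 75 genes (70.5% of all genes). The deficient signal was then higher there for 62 of 75 (60.3% of all genes), so its direction depended on the scaling. Levels set across arrays carry differences of labelling and scanning with them. The wild-type pools also differ in their labels, which name the Foxp3 reporter for the Cd4Cre array and no reporter for the Foxp3Cre array.

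**Figure D3:**
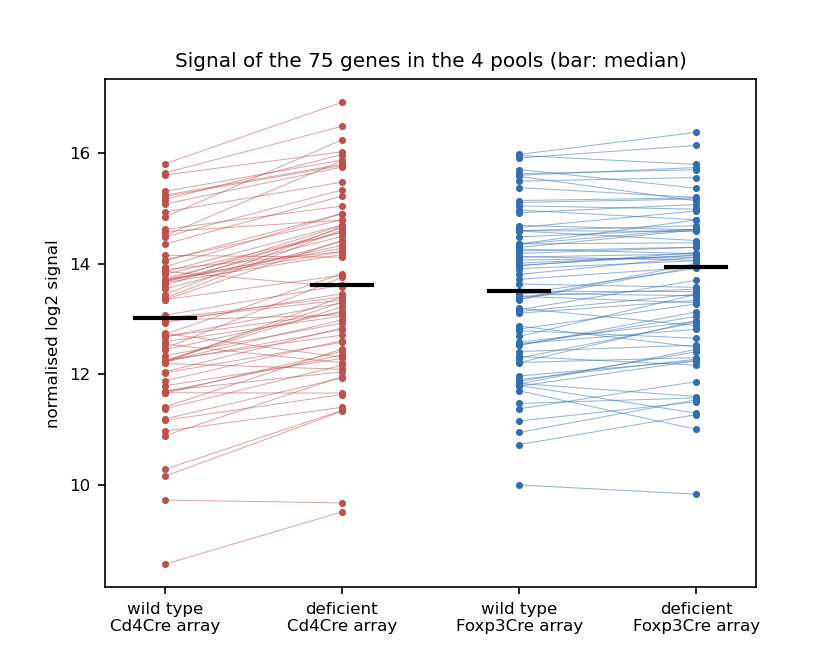
Normalized log2 signal (vertical axis) of each of the 75 genes in the wild-type and deficient pools of the Cd4Cre array (red) and the Foxp3Cre array (blue), with lines joining the pools hybridized together and black bars at the medians. The medians are 13.01, 13.61, 13.50 and 13.94 from left to right, and most red lines climb.

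By subunit and origin the medians were as follows. The 48 large-subunit genes had medians of 0.68 on the Cd4Cre and 0.15 on the Foxp3Cre array, and the 26 small-subunit genes had 0.61 and 0.11. Above 0 on the Cd4Cre array lay 44 of 48 and 23 of 26. The 46 genes with a bacterial counterpart had medians of 0.74 and 0.13, and the 28 that are specific to mitochondria had 0.59 and 0.15. On the Cd4Cre array the interquartile range of single genes within these groups was 0.37 to 0.51. Without Mrps36, the medians over the other 74 genes were 0.67 and 0.13, the same to 2 decimals. Genes of 1 array are not replicates, and no test was run between subunits.

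In the limma fit over both arrays, which treats the difference between the Cre systems as spread and has 1 residual degree of freedom, none of the 14374 genes detected on both arrays passed an adjusted p of 0.05 (0.0% of all genes), so no mitochondrial ribosomal protein gene rose or fell by that test. At an unadjusted p under 0.05, 3254 genes passed (22.6%). They included 7 of the 75, all with a higher mean (8.51% of all genes passed in that direction). These were Mrps36, with a mean ratio of 0.90 (SE 0.34, limma adjusted p = 0.179), Mrps18c (0.87), Mrps25 (0.86), Mrps14 (0.85), Mrpl15 (0.85), Mrpl47 (0.83) and Mrpl1 (0.76). All but Mrpl1 were among the 15 genes past 2-fold on the Cd4Cre array, while Mrpl20 and Mrpl51, the highest there, were not among the 7. Bcl11b, the deleted gene, had a mean ratio of -2.14 with a limma adjusted p of 0.100. With median centring, limma called 312 of all 14374 genes and 1 of the 75, with an adjusted p of 0.0423. At an unadjusted p under 0.05 it passed 57 of the 75, all with a higher mean. Of all genes 29.4% passed, counted in both directions, and their share with a higher mean is not given here.

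The size of the ratios depended on the normalization, and these genes are bright. On the Cd4Cre array 62 of the 75 and on the Foxp3Cre array 61 lay in the third of all detected genes with the brightest signal, which after loess had medians of 0.00 and -0.10. With median centring, which leaves any trend of the ratio with brightness in place, the 75 had medians of 1.103 and 0.820, and the same bright genes had 0.56 and 0.58. Median centring left 43 of the 75 past 2-fold upwards on the Cd4Cre array (18.0% of all genes) and 20 on the Foxp3Cre array (13.5% of all genes), with none at least 2-fold lower on either (8.31% and 6.73% of all genes). Among the bright genes the shares past 2-fold upwards were then 31.4% and 27.0%, beside 57.3% and 26.7% of the 75. The share of all genes above 0 was then 53.1% and 57.3%. The scanner software's own ratio, which has its own dye correction, put 46.1% and 49.1% of all genes above 0 on the Cd4Cre and Foxp3Cre arrays, with 15.1% and 7.6% at least 2-fold up and 18.7% and 13.3% at least 2-fold down. With it 63 of 75 genes read higher on the Cd4Cre array than on the Foxp3Cre array (53.6% of all genes did), with a median difference of 0.50. With median centring 59 did (52.1% of all genes), with a median difference of 0.36. Probes with less G and C had the higher ratios, with r = -0.42 and -0.45 over the 75 genes, given as a description. With the trend of the ratio on base composition over all probes removed, the medians were 0.72 and 0.15.

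Probes of the same gene did not always agree. Of the 124 probes, 118 were detected on the Cd4Cre array, and of these 103 lay above 0, 22 were 2-fold or more higher and 1 was 2-fold or more lower. With Foxp3Cre 119 were detected and 80 of them lay above 0, with 0 past 2-fold upwards and 1 past it downwards. Among the 30 genes with several detected probes, the median range within a gene was 0.34 and 0.31. In 7 genes the probe readings differed by over 1 on an array, in Mrps15 only through a value not well above background. The first 30 bases of the probes that decide the reading of 3 genes are shown, in the 60-base orientation of the files, to let a reader see which stretch of each gene gave which value (positions on mm9).
Mrps25, probe at chr6:92124124-92124183: accacagacttcttggcatttggccatata
Mrps25, probe at chr6:92120277-92120336: cagcgacacattgtaacatttgaggagtaa
Mrps5, probe at chr2:127416514-127417605: cacggctcattgtcatccagggaaacaagg
Mrps5, probe at chr2:127429365-127429424: gaaacccaccaacatctggcggataagaag
Mrps18b, probe at chr17:36047384-36047443: acacaccatcaagggcatacacaagagtct
Mrps18b, probe at chr17:36051313-36051461: acagcggacccgaaagacatgtattcgtaa

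Mrps25 owed its place among the 15 genes past 2-fold to its brighter probe, listed first, which read 1.18 and 0.54 on the Cd4Cre and Foxp3Cre arrays. Its other probe, nearer the 3′ end of this minus-strand gene, went the opposite way. That probe read -0.84 on the Cd4Cre array. On the Foxp3Cre array it was not well above background in the deficient pool, which makes it at least 2.75-fold lower there, taking the lowest signal well above background or its own signal, whichever was higher, for the dim side. It is the probe counted above as at least 2-fold lower on that array. Mrpl44, Mrpl47 and Mrpl18 also passed 2-fold on the Cd4Cre array by their brightest probe only, as did Mrpl15, given below. Their other probes read 0.54 and 0.24 (Mrpl44), 0.18 (Mrpl47), and 0.74 and 0.86 (Mrpl18) there.

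Mrps5, the lowest gene on the Cd4Cre array, was read by its 3′ probe (-0.43 and -0.38). Its 5′ probe, whose 60 bases cover 1092 bases of the genome and which is listed first, read 1.51 and -0.09, and a probe between them read -0.14 and -0.32. The probe from a cDNA clone, further 3′, was not well above background on the Cd4Cre array and read 0.52 (error 0.43) on the Foxp3Cre array. The low rank of Mrps5 on the Cd4Cre array thus depends on the probe. The mean over all its probes, including the one not well above background, was 0.28. Mrpl38, the gene next to it in rank, likewise had probes at -0.34 and -0.58 on the Cd4Cre array and another, from a cDNA clone further 5′, at 1.08. On the Foxp3Cre array the same 3 probes read -0.24, -0.72 and 0.14.

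Mrpl49, of the large subunit, had 3 probes that read 1.39, 0.60 and 0.36 on the Cd4Cre array from the 5′ to the 3′ end, and 0.44, 0.18 and 0.00 on the Foxp3Cre array. Mrps9 had RefSeq probes at 0.36 and 0.09 on the Cd4Cre array and a cDNA clone probe at -1.13, the probe counted as at least 2-fold lower there. Mrpl15 read 1.07 and 0.63 by its RefSeq probe, and -0.21 and 0.48 by a cDNA clone probe. Mrps15 read 0.66 and 0.13 by its RefSeq probe. Its clone probe read 0.22 on the Cd4Cre array. In the deficient pool of the Foxp3Cre array it was not well above background, at least 1.55-fold lower. The probes of Mrps15 thus differ by over 1 only if that probe's ratio of -0.95 is taken as read, and the bound does not establish it. In these 4 genes a RefSeq probe was the brightest, and was the one used.

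Mrps18b was the exception, because its brightest probe over both arrays pooled lies on the strand opposite to the gene. On the Cd4Cre array alone the RefSeq probe was the brighter in both channels (9.55 and 9.80, against 8.56 and 9.51). The opposite-strand probe, listed first for this gene, read 0.95 and 0.49, and the RefSeq probe on the gene's own strand read 0.26 and 0.32. Its remaining probe, also on the opposite strand, was not well above background on either array. Of the 112 probes whose gene strand could be looked up, these 2 were the only ones on the other strand. Which transcript the opposite-strand probe measures was not tested.

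**Figure D4:**
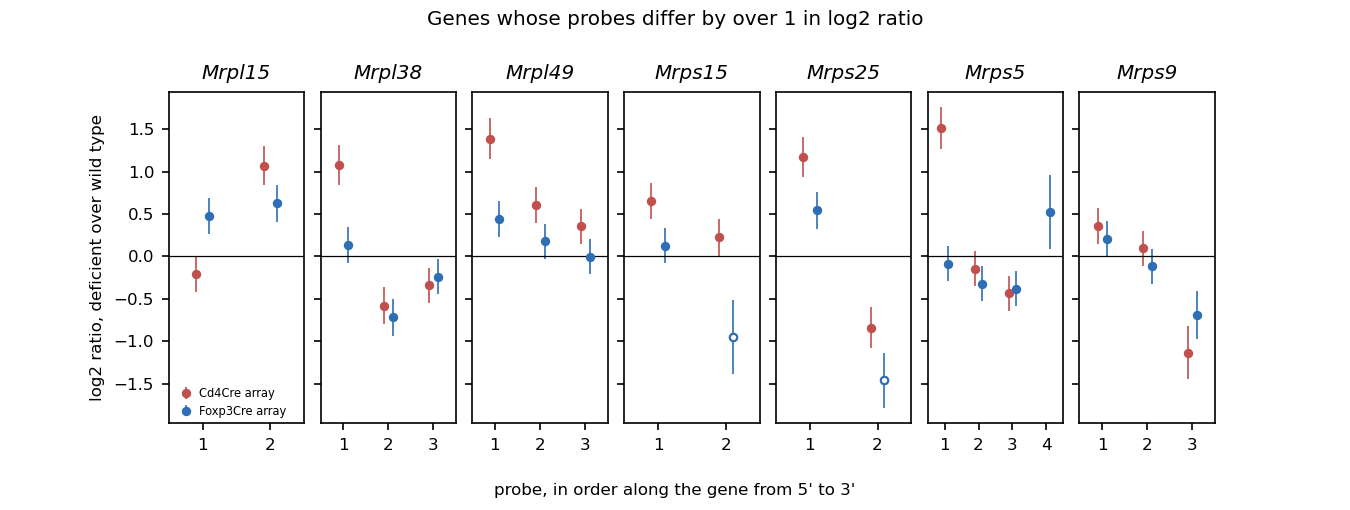
Log2 ratio of deficient over wild type (vertical axis) for each detected probe of the 7 genes whose probes differed by over 1 on an array, ordered from 5′ to 3′ along the gene, on the Cd4Cre array (red) and the Foxp3Cre array (blue). Bars are the scanner software's error, and open circles mark probes not well above background in the deficient pool. On the Cd4Cre array the probes run from 1.39 to 0.36 in Mrpl49, from 1.51 to -0.43 in Mrps5 and from 1.18 to -0.84 in Mrps25.

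The promoters of these genes were compared with those of all genes in RefSeq's table for the assembly GRCm38.p6, over 250 bases before and 50 after the annotated start. Of the 75 genes 66 were in the table. The core of the ETS family site, CCGGAAG, read on both strands, was found in 24 of 66 (36.4%) against 9.93% of 27025 promoters. The site of NRF1, a regulator of nuclear genes for mitochondria, GCGCATGCG on both strands, was found in 7 (10.6%) against 1.95%, and that of YY1, AAGATGGCG on both strands, in 7 (10.6%) against 1.64%. The E-box CACGTG, bound by Myc among others and read the same on both strands, was found in 5 (7.58%) against 8.09%. At least 1 of the ETS, NRF1 and YY1 motifs was present in 33 of 66 (50%), against 12.7% of all promoters. The 27025 promoters were not limited to genes detected on the arrays, whereas all 75 genes of the family were detected. Oxidative phosphorylation genes held the NRF1 motif (8 of 69, 11.6%) and the YY1 motif (7 of 69, 10.1%) at like shares. Cytosolic ribosomal protein genes held the ETS motif at a like share (25 of 61, 41.0%). A match is a description of the letters and does not show that a factor binds.

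The 6 stretches below are the 60 bases around a match in genes at either end of the ratios. They were chosen after the values were seen, are written 5′ to 3′ on the strand of the gene, and end before its start. Capitals mark the match, and 10 capitals are matches on both strands that overlap.
Mrpl51, ETS, chr6:125192090-125192149, plus strand: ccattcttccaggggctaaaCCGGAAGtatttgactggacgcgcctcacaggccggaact
Mrps18c, ETS, chr5:100798583-100798642, plus strand: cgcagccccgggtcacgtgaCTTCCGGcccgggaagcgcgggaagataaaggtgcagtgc
Mrpl34, ETS, chr8:71464866-71464925, plus strand: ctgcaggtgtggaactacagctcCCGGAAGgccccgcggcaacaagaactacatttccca
Mrpl9, NRF1, chr3:94443276-94443335, plus strand: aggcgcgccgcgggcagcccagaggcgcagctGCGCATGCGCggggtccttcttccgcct
Mrpl10, NRF1, chr11:97041427-97041486, plus strand: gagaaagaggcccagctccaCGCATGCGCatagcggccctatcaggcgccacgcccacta
Mrpl32, NRF1, chr13:14613085-14613144, minus strand: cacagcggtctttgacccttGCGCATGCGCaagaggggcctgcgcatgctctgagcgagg

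Ratios were set beside the motifs. The 24 genes with an ETS match had medians of 0.76 on the Cd4Cre and 0.18 on the Foxp3Cre array, and the 42 without had 0.64 and 0.13. The 7 genes with an NRF1 match had medians of 0.55 and 0.26, and the 59 without had 0.73 and 0.13. For YY1 the 7 genes with a match had 0.74 and 0.15 and the 59 without had 0.67 and 0.13, and for the E-box the 5 with a match had 0.87 and 0.15 and the 61 without had 0.67 and 0.13. Among the printed genes with an NRF1 match, Mrpl10 (-0.28 and -0.32) and Mrpl9 (-0.01 and -0.50) were near the bottom, while Mrpl32 was at the top of the Foxp3Cre array. No difference between genes with and without a motif was tested.

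Other genes of the mitochondrial translation system are given next by list, and no difference between a list and the 75 was tested. Mitoribosomal proteins with other names were a mixed group of 7, with medians of 0.54 on the Cd4Cre and -0.14 on the Foxp3Cre array (0.87 there with median centring). With Cd4Cre, Mrp63 (1.15) and Chchd1 (1.02), of the large and the small subunit, were at least 2-fold higher. Dap3, a GTP-binding protein of the small subunit, read -0.28 and Ptcd3, which binds RNA there, read -0.51. The 14 translation factors, which start, extend and end mitochondrial protein synthesis or insert its products, had medians of 0.30 and 0.13, with 13 and 9 above 0. On the Cd4Cre array 2810006K23Rik (1.49) and the elongation factor Tsfm (1.17) were at least 2-fold higher. On the Foxp3Cre array the initiation factor Mtif2 was the highest (1.25, against -0.23 on the Cd4Cre array), and Oxa1l, which inserts new proteins into the inner membrane, was the lowest (-0.75).

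Genes that build the mitochondrial ribosome, as assembly factors or rRNA-modifying enzymes, had medians of 0.18 over 25 detected genes on the Cd4Cre array and -0.20 over 26 on the Foxp3Cre array (0.29 with median centring). Dhx30, an RNA helicase needed for assembly, was the lowest on both (-1.49 and -1.49). With Cd4Cre the helicase Ddx28 (1.07) was at least 2-fold higher, and on the Foxp3Cre array Mterf3 and Gtpbp10 (both 1.15) were, with Mrm2 lower (-1.04). The 20 mitochondrial aminoacyl-tRNA synthetases, which charge the tRNAs, had medians of 0.18 and -0.04 (the latter 0.16 with median centring and 0.03 with the scanner's ratio), with Vars2 (-1.27) and Tars2 (-1.22) at least 2-fold lower on the Cd4Cre array. The 17 detected genes of mitochondrial transcription and RNA handling had medians of -0.16 (0.16 with median centring) and 0.21. Among them the DNA polymerase Polg was low on both arrays (-1.72 and -1.04), and the RNA polymerase Polrmt read -1.13 and -0.96. Elac2, which trims tRNA ends, was the lowest on the Foxp3Cre array (-1.14). Slirp, which stabilizes mitochondrial mRNA, was high on the Cd4Cre array (1.28) and read 0.49 on the Foxp3Cre array. The 12 detected regulators of mitochondrial biogenesis had medians of -0.39 and -0.41, the lowest being the coactivator Ppargc1b (-0.96 and -1.18). The highest was Gabpa, the ETS factor whose motif core is given above, at 0.25 and 0.62. Genes of protein import and quality control, 21 in all, had medians of 0.08 and -0.05 (the latter 0.61 with median centring), and the protease Lonp1 was low on both arrays (-1.24 and -1.33), while the import channel Tomm40 was the lowest on the Foxp3Cre array (-1.56).

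The respiratory chain, whose core subunits these ribosomes make, was measured by its nuclear-encoded genes. Of 81 detected oxidative phosphorylation subunits, 74 lay above 0 on the Cd4Cre array, with a median of 0.83 and 20 at least 2-fold higher. On the Foxp3Cre array 67 of 81 lay above 0, with a median of 0.20 and 1 at least 2-fold higher, Cox6a2, a muscle-type subunit of cytochrome oxidase, at 1.197, which also led on the Cd4Cre array (3.14). The cytosolic ribosomal proteins differed in order between the arrays. Their 80 detected genes had a median of 0.48 on the Cd4Cre array, with 58 above 0 and 15 at least 2-fold higher, and a higher median of 0.79 on the Foxp3Cre array, with 74 above 0 and 21 at least 2-fold higher. Factors that build cytosolic ribosomes in the nucleolus, 25 genes, had medians of -0.41 and -0.48 (0.05 and 0.24 with median centring). The background shares for these counts are those given above for all detected genes, and the lists were described by counts and medians only.

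Markers of dividing cells and of other cell types also differed between the pools. The 26 cell cycle genes had a median of 1.60 on the Cd4Cre array, with 26 above 0 and 20 at least 2-fold higher, led by Rrm2 (2.79). On the Foxp3Cre array their median was 0.42, with 18 above 0 and 8 below. There 3 were at least 2-fold higher, led by Kif11 (1.55), and 2 at least 2-fold lower, Mcm2 (-1.31) and Mcm3 (-1.015). The myeloid and granulocyte markers had medians of 3.62 over 12 detected genes and 1.35 over 11. The highest were S100a9 (7.02) with Cd4Cre and S100a8 (2.33) with Foxp3Cre. This list was mixed in direction. With Cd4Cre 10 of the 12 markers lay above 0 and 2 below, and with Foxp3Cre 8 of the 11 lay above 0 and 3 below. Csf1r was the lowest, with -1.505 and -1.197, and Cd14 read -1.05 with Cd4Cre and 0.52 with Foxp3Cre. In the wild-type pool of the Cd4Cre array Camp, Elane and Itgam were not well above background, and in both pools of the Foxp3Cre array Elane was not. The NK cell markers had medians of 1.39 and 0.57, the 6 detected B cell markers 0.84 and -0.37 (with the scanner's ratio 2.54 for NK cell, 1.13 for B cell and 4.11 for myeloid markers on the Cd4Cre array), and the 2 CD8 markers 1.88 and 0.05 (the latter -0.03 with the mean over probes), while Pax5 was not well above background in any pool. T cell markers had medians of -0.91 and -0.73 (the latter 0.20 with median centring), and Treg markers -2.32 and 0.07. The part of these cell type and cell cycle differences in the ratios of the mitochondrial ribosomal protein genes was not tested.

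**Figure D5:**
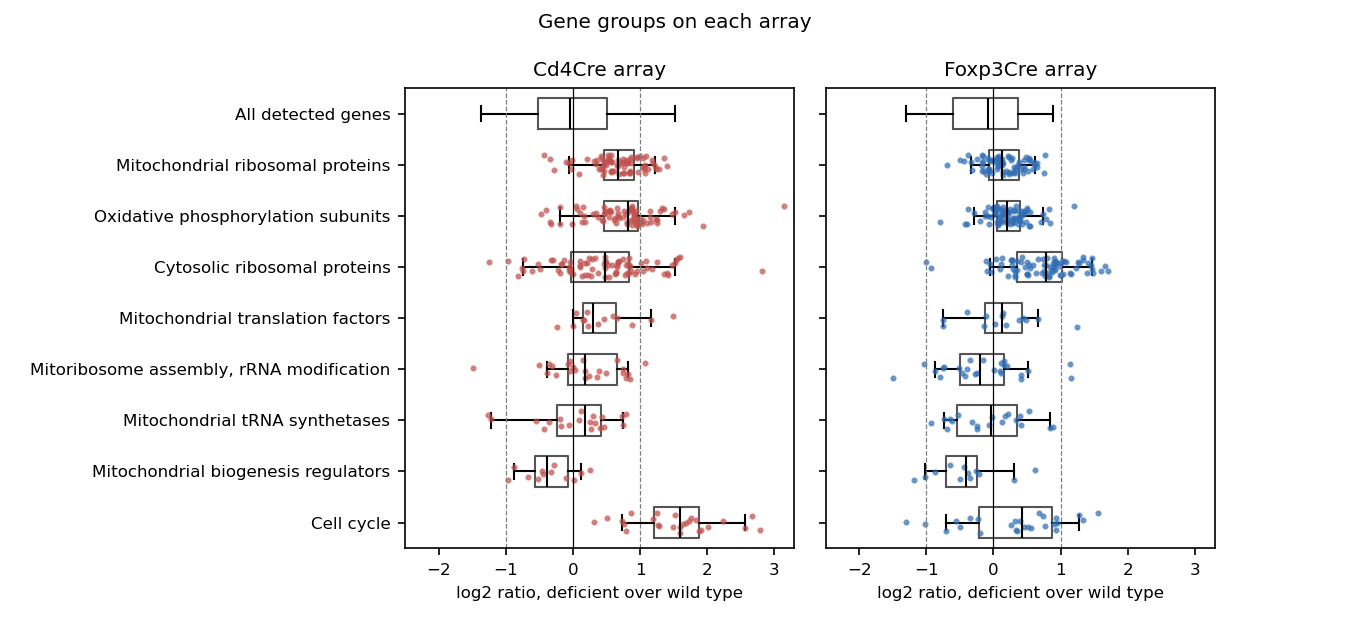
Log2 ratio of deficient over wild type (horizontal axis) for gene groups on the Cd4Cre array (left) and the Foxp3Cre array (right), with a point per detected gene, boxes at the median and quartiles and whiskers at the 5th and 95th percentiles. Points are left out for all detected genes, and dashed lines mark 2-fold. The mitochondrial ribosomal proteins have medians of 0.67 and 0.13, the oxidative phosphorylation subunits 0.83 and 0.20, the cytosolic ribosomal proteins 0.48 and 0.79 and the cell cycle genes 1.60 and 0.42.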

How the data were processed

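Agilent Feature Extraction was version 10.5.1.1 for the Cd4Cre and 10.7.3.1 for the Foxp3Cre array, per the file headers, and 10.5.1 per the submitters' processing notes. The authors deposited spot and background intensity for each channel, the software's background-subtracted, detrended and dye-normalized log10 ratio of Cy5 over Cy3 with its error, and its p-value for 1 array, which was not used. The deposited value table equals that log10 ratio. Intensities were corrected here with normexp (offset 50) and loess in limma 3.58.1 under R 4.3.3, leaving out 137 and 155 outlier spots. Aquantile scaling gave the pool signals. Probes were named through RefSeq where possible (24844 by accession, 6045 by symbol, 1810 by synonym). Probe positions are on mm9, promoters on GRCm38.p6. The limma fit (intercept only, Benjamini-Hochberg adjustment over 14374 genes) was tested on simulated data.

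The genes and lists were chosen with earlier results of these data known. Named genes were the 6 highest and lowest of each array, those at least 2-fold, the 6 that differed most between arrays, those with disagreeing probes, and, of other lists, the extremes and some at least 2-fold. Mrpl12, Mrpl22, Mrps28 and Mrps18b were named after their values were seen. Whether a pool was split or repeated is not given in the sources used here, and the number of arrays limits the precision. 5 probes that RefSeq assigns to this family carry other names in the files and are counted under other lists. Alternatives covered background correction, normalization, probe choice, filters, outlier spots and GC content. The RefSeq-accession probe and the median scaling of pool signals were chosen after seeing the data.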

Additional observations from a re-analysis of the deposited data

Results flagged for a closer look

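Mrpl28, Mrpl37 and Mrpl43, all of the large subunit, stood on opposite sides of 0 on the arrays, each by more than the software's error, and the difference was not tested. Mrpl28 read 0.54 with Cd4Cre and -0.44 with Foxp3Cre. Mrpl37 read 0.47 and -0.70. Mrpl43 read 0.81 and -0.34. With median centring Mrpl28 (1.42 and 0.58) and Mrpl43 (1.79 and 0.73) lay above 0 on both arrays, and Mrpl37 (0.56 and -0.47) remained on opposite sides.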

How the results depend on the processing

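No alternative turned the direction of a result on the family as a whole. Median centring in place of loess moved the most. It gave the 75 genes medians of 1.103 (Cd4Cre) and 0.82 (Foxp3Cre), 1.03 and 0.66 above those of all genes. It put 43 and 20 genes at least 2-fold higher, gave the large subunit medians of 1.17 and 0.85 and the small subunit 1.07 and 0.71, and let limma call 1 gene. It moved the median of all genes by 0.12 and 0.25. With the mean over all probes of a gene, detected or not, 9 genes passed 2-fold upwards on the Cd4Cre array in place of 15. Under the other alternatives the medians ran from 0.57 to 0.72 and from 0.11 to 0.21. Genes above 0 numbered 68 to 72 and 47 to 72 over all alternatives. Values of named genes and lists moved in 114 of 1066 comparisons, 79 of them under median centring. The signal over background limits only single probes, since every gene was measured in both channels. Each array pairs a deficient with a wild-type pool, so the limma fit on these ratios is the paired analysis, and no other pairing was possible. No array could be left out, since a fit on 1 array has no residual degree of freedom.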
